A study of Mus musculus with 3 samples.

Results

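Transcript counts of 10 non-collagen matrix genes were examined in the lungs of 3 mice. The members were Fn1, Tnc, Postn, Sparc and Thbs1, which encode matrix and matricellular glycoproteins, Eln and Fbn1, which encode the core and the scaffold of the elastic fibre, and the lysyl oxidase genes Lox, Loxl1 and Loxl2. They were taken by name, not by level, and all 10 were found among the 53342 genes of the count table. The mice were male C57Bl/6, an inbred laboratory strain, and their labels name no engineered allele or age. Each had been given microparticles made from Mycobacterium abscessus into the trachea, at a dose equal to 1000000 bacteria in 50 µL. The challenge serves to induce granulomas, in a series on sarcoidosis. MIA-602, which blocks the receptor for growth hormone-releasing hormone, was then given to all 3 under the skin at 5 µg a day for 3 weeks. The samples form 1 group with 1 library per mouse, named mice 4, 5 and 6 after the last digit of their labels. Lungs without the drug or without the challenge were not analysed here, so the values below are levels and their spread between mice, not responses.

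Elastic fibres give the lung its recoil. In their assembly, secreted tropoelastin is laid on a scaffold of fibrillin microfibrils and lysyl oxidases, copper enzymes, oxidise its lysines so that neighbouring chains become cross-linked. Fibronectin forms the provisional network on which other fibres assemble, and matricellular proteins such as tenascin C, periostin, SPARC and thrombospondin 1 bind this network and cell-surface receptors. In healthy adult tissue elastin turns over slowly, and several of the glycoproteins are made again in wounds and in fibrosis.

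The libraries held 31579465 to 43845715 counts. Levels are in CPM, counts per 1000000 after scaling for library composition with TMM factors of 0.983 to 1.01. Errors are the SD between mice (n = 3) and folds between mice are of CPM + 0.5. Levels of different genes are compared as CPM per kilobase of exon or, where stated, of the longest transcript. Shares of counts, medians over genes in CPM and sums of marker lists are not scaled for length. Markers of lung tissue were present in every library, with 5 of 5 alveolar type 1 and 5 of 5 alveolar type 2 genes at 1 CPM or more in each mouse. Mouse 4 stood apart in 3 lists of markers of cell types that a lung sample could hold. Its 8 skeletal muscle genes summed to 5540 CPM, against 2057 and 1767 CPM in mice 5 and 6, its 7 squamous epithelium genes to 381 CPM, against 144 and 123, and its 4 club cell genes to 8989 CPM, against 24520 and 21710. Mouse 5 stood apart in cardiac muscle genes, which summed to 148 CPM, against 316 and 325 CPM in mice 4 and 6. Platelet genes summed to 53.7 CPM in mouse 5, against 27.2 and 33.0 CPM in mice 4 and 6. Values that rest on mouse 4 are also given without it. In bulk tissue, fewer cells of a type and less RNA per cell cannot be told apart.

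All 10 members were expressed, each with at least 760 counts in every library and at 1 CPM or more in each mouse. Their summed share of the library was 0.348% in mouse 4, 0.342% in mouse 5 and 0.306% in mouse 6 (0.332% ± 0.0223, SD, n = 3), and Sparc and Eln made up 69.2% ± 0.964 of these member counts. For counting error alone, the exact 95% Poisson interval of the summed counts ran from 96.3% to 103.9% of the value for Loxl2, the member with the fewest counts. The median over the members was 105.3, 107.9 and 103.9 CPM in mice 4, 5 and 6, and all 10 were among the 17636 genes kept by the expression filter.

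Per kilobase of exon the members ran from the middle to the top of the expressed genes, with Sparc first, Eln next and Loxl2 and Tnc last. Sparc reached 347 ± 44.1 CPM per kilobase and lay above 99.3% of the 17616 filtered genes with a length, and Eln reached 121 ± 19.9 and lay above 97.9%. Loxl1 followed at 33.98 ± 0.218, Fn1 at 30.6 ± 7.55, Postn at 25.5 ± 3.90, Lox at 18.6 ± 2.88 and Thbs1 at 16.2 ± 0.515 CPM per kilobase. Fbn1 stood at 7.08 ± 0.165, Loxl2 at 4.47 ± 0.266 and Tnc at 4.37 ± 0.164 CPM per kilobase, the last of these close to the median filtered gene at 4.48.

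**Figure D1:**
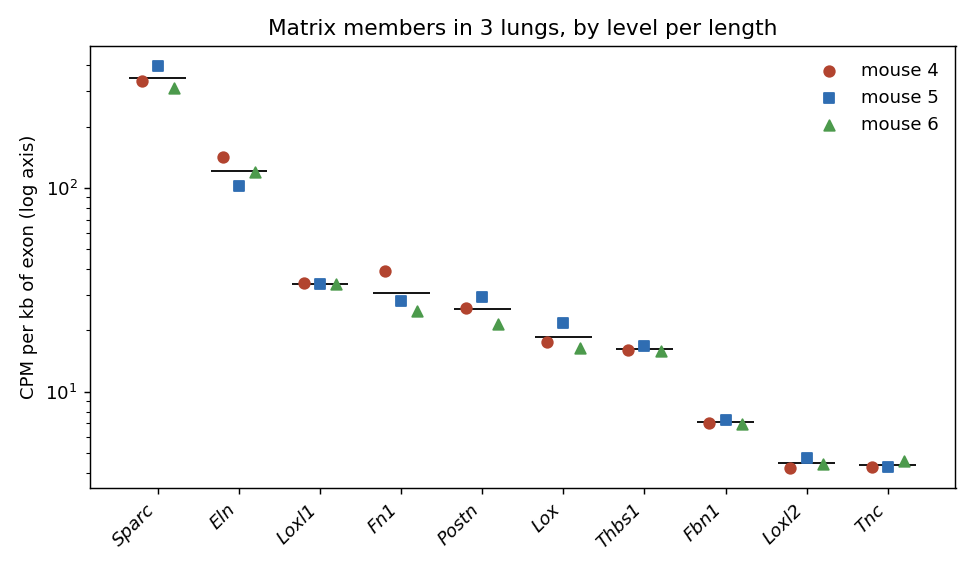
CPM per kilobase of exon (log axis) of the 10 members in mice 4, 5 and 6, with a bar at the mean. Sparc and Eln stand clear of the rest, Fbn1, Loxl2 and Tnc form the lower end, and the points of the genes from Loxl1 to Thbs1 overlap between neighbours.

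Not all places in this order were separated by more than the spread between mice. The ranges of Sparc and Eln, of Eln and Loxl1, of Thbs1 and Fbn1 and of Fbn1 and Loxl2 did not overlap, and each of these orders held in 3 of 3 mice. Loxl1 and Fn1 overlapped and kept their order in 2 of 3 mice, as did Fn1 and Postn. Postn lay above Lox, and Lox above Thbs1, in 3 of 3 mice although their ranges overlapped. Loxl2 lay above Tnc in 1 of 3 mice. Without mouse 4 all 10 places were kept. No test of an order could pass, since the smallest two-sided p of an exact sign-flip test over 3 mice is 0.25. The middle of the order also depended on the gene length used: per kilobase of the longest transcript, Fn1 (43.0 ± 10.6) and Postn (42.5 ± 6.50) lay above Loxl1 (33.98 ± 0.218), and Tnc (4.78 ± 0.180) lay above Loxl2 (4.55 ± 0.271).

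Of the elastic fibre genes, transcripts of the core protein were far more abundant per kilobase than those of its scaffold. Eln, the tropoelastin gene (ENSMUSG00000029675, chromosome 5, 134702593 to 134747323, build GRCm38), had 49401, 29831 and 30712 counts, or 1147, 825 and 969 CPM, in mice 4, 5 and 6. Mouse 4 was highest and mouse 5 lowest, a 1.39-fold range, and between the remaining mice the mouse 5 to mouse 6 ratio was 0.852. Fbn1, which encodes fibrillin 1 and is the gene altered in Marfan syndrome (ENSMUSG00000027204, chromosome 2, 125300594 to 125507993), had 85.4, 88.1 and 84.2 CPM, a 1.05-fold range. Within each library Eln exceeded Fbn1 per kilobase of exon by 20.1, 14.0 and 17.2 times, and by 41.7, 29.1 and 35.7 times per kilobase of the longest transcript. The other fibrillin gene measured, Fbn2, known mainly from development, had 35, 22 and 11 counts, and Fbn1 was 179 ± 77.2 times higher per kilobase.

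Partners of the elastic fibre were broadly expressed, and 14 of 15 reached 1 CPM in each mouse, the exception being Fbn2. Mfap4, a microfibril-associated glycoprotein, stood at 361 ± 36.8 CPM per kilobase, above Eln in each mouse. The latent TGF-beta binding proteins Ltbp4 and Ltbp2, which bind microfibrils, had 37.0 ± 9.94 and 32.1 ± 5.05 CPM per kilobase, and Efemp1, the gene of fibulin 3, had 30.9 ± 8.47. Fbln2, the gene of fibulin 2, had the widest range of this list, with 18.8, 13.4 and 11.3 CPM in mice 4, 5 and 6. The median range between mice was 1.31-fold in this list, beside 1.199-fold in the 10 members and 1.21-fold over all filtered genes.

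Loxl1 and Lox carried most of the lysyl oxidase transcripts. Loxl1, whose enzyme is required for elastic fibre upkeep in mice (ENSMUSG00000032334, chromosome 9, 58287738 to 58313186), had 4858, 4026 and 3550 counts, or 113, 111 and 112 CPM in mice 4, 5 and 6. This was the smallest range of any member, at 1.01-fold, and 0.437% of filtered genes had a smaller one. Lox, the founding enzyme, which cross-links both collagen and elastin (ENSMUSG00000024529, chromosome 18, 52516067 to 52529867), had 84.2, 104.5 and 78.2 CPM. Mouse 5 was highest for Lox, 1.33-fold over mouse 6, and the mouse 4 to mouse 5 ratio was 0.806. Loxl2, an enzyme known for cross-linking collagen IV (ENSMUSG00000034205, chromosome 14, 69609068 to 69695834), had 22.9, 25.7 and 24.0 CPM, a 1.12-fold range.

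As a share of the 5 lysyl oxidase genes per kilobase of exon, Loxl1 took 55.0% ± 2.28, Lox 30.0% ± 3.47, Loxl2 7.23% ± 0.277, Loxl3 7.17% ± 1.19 and Loxl4 0.616% ± 0.0982 (SD, n = 3). Loxl1 exceeded Lox in every mouse, by 1.94, 1.54 and 2.07 times in mice 4, 5 and 6, whereas Loxl2 exceeded Loxl3 in mouse 5 but not in mice 4 and 6 (ratios of 1.27 against 0.894 and 0.927). Among genes that serve these enzymes, Atox1, a copper chaperone, had 151.8 ± 24.6 CPM per kilobase and Bmp1, a protease that activates prolysyl oxidase and procollagen, 12.8 ± 0.542. The procollagen proteinase enhancers Pcolce and Pcolce2 had 21.6 ± 2.11 and 12.2 ± 5.18 CPM per kilobase. Pcolce2 was the most variable of this list, with 42.0, 83.9 and 42.9 CPM in mice 4, 5 and 6. In this list 8 of 9 genes reached 1 CPM in each mouse, and Tll2, a relative of Bmp1, had 7, 0 and 3 counts.

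**Figure D2:**
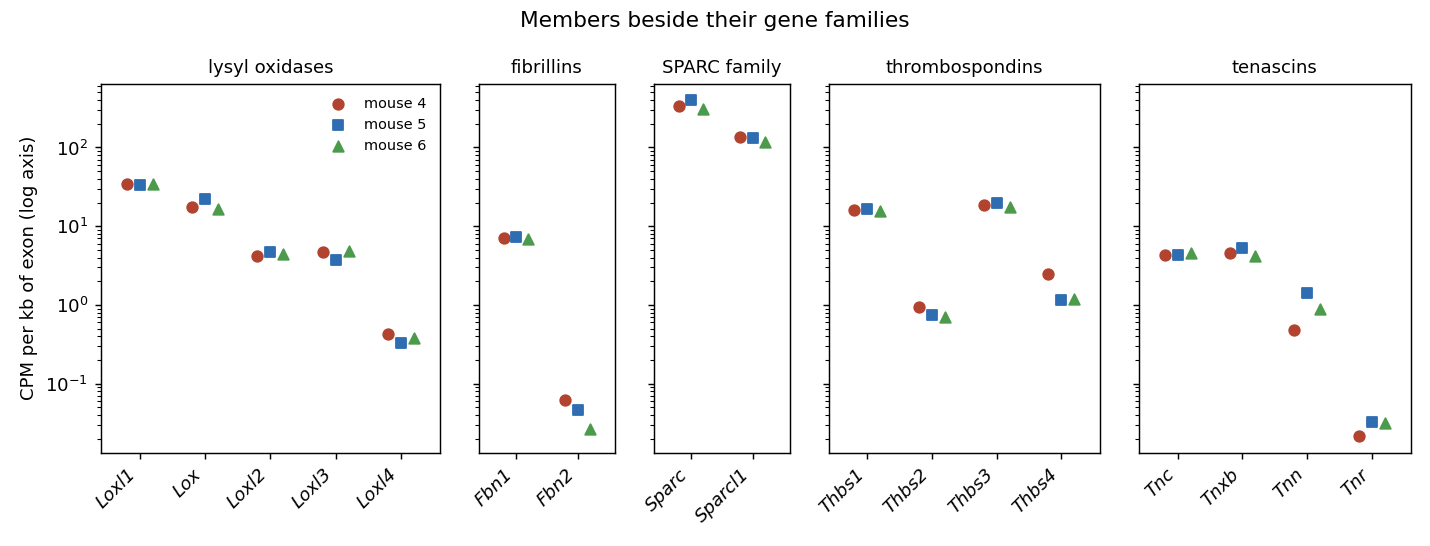
CPM per kilobase of exon (log axis) in mice 4, 5 and 6 of the members and of related genes of their families. Loxl1 and Lox lead the lysyl oxidases, Fbn1 stands far above Fbn2, Sparc above Sparcl1, and Thbs1 and Tnc lie beside Thbs3 and Tnxb.

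The glycoproteins ranged from Sparc, one of the most abundant lung transcripts, to Tnc near the middle of all expressed genes. Sparc, a collagen-binding matricellular protein (ENSMUSG00000018593, chromosome 11, 55394500 to 55423183), had 1273, 1500.0 and 1175 CPM in mice 4, 5 and 6. Mouse 5 was highest, by 1.28-fold over mouse 6. Its relative Sparcl1 had 130 ± 10.7 CPM per kilobase, so that Sparc was 2.68 ± 0.266 times higher. Fn1, the fibronectin gene (ENSMUSG00000026193, chromosome 1, 71585520 to 71653200), had 19703, 11765 and 9199 counts, or 457, 325 and 290.1 CPM. Mouse 4 was the highest and mouse 6 the lowest, and the values of mice 5 and 6 differed by 1.12-fold. Gene counts do not separate its 17 annotated transcripts, so plasma and cellular forms of fibronectin were not told apart.

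Postn, which encodes periostin, a matrix protein of fibroblasts (ENSMUSG00000027750, chromosome 3, 54361109 to 54391037), had 224.5, 254 and 186.5 CPM in mice 4, 5 and 6, a 1.36-fold range with mouse 5 highest and mouse 6 lowest. Thbs1, thrombospondin 1, an activator of latent TGF-beta (ENSMUSG00000040152, chromosome 2, 118111876 to 118127133), had 97.9, 102 and 95.8 CPM, a 1.06-fold range. Within the family, Thbs3 was somewhat higher than Thbs1 per kilobase in every mouse (Thbs1 to Thbs3 ratio 0.862 ± 0.0266), while Thbs1 exceeded Thbs2 by 20.5 ± 3.05 times. Thbs4, known from muscle and tendon, differed most, with 8.24, 3.79 and 3.88 CPM in mice 4, 5 and 6. Tnc, tenascin C, a glycoprotein of development and wound repair (ENSMUSG00000028364, chromosome 4, 63959785 to 64047015), had 33.1, 33.3 and 35.4 CPM, a 1.07-fold range. Its relative Tnxb stood at a similar level per kilobase (Tnc to Tnxb ratio 0.938 ± 0.138 by exon union, 1.03 ± 0.150 by longest transcript), and Tnr, a tenascin of the nervous system, had 12, 15 and 13 counts.

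The promoter windows of Postn and Tnc are shown because these were the members, of those held, with a RefSeq start within 100 bases of the start of the annotated gene. Windows were held for 4 of the 10 members (Postn, Tnc, Fbn1 and Sparc). Each runs from 250 bases before to 50 bases after the start, 5′ to 3′ in the direction of the gene, from RefSeq on build GRCm38.p6, and capitals mark TATATAA, a form of the TATA box. The Postn window is chr3:54360857-54361156 on the plus strand and the Tnc window chr4:64046887-64047186 on the minus strand.
Postn: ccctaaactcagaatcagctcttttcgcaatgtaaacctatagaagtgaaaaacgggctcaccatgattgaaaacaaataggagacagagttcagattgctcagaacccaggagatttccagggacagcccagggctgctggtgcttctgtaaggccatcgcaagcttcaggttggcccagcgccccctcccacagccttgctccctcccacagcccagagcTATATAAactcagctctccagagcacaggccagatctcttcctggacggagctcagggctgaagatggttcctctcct
Tnc: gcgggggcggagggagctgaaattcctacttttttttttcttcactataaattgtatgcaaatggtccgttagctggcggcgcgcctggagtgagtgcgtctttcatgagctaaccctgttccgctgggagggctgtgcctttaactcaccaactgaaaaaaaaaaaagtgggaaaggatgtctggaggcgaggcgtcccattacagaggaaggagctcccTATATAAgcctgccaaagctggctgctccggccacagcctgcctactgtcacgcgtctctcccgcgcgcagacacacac
Tnc has another RefSeq start 79 bases upstream, at the annotated gene start, and the window of the downstream start is shown because it holds TATATAA, a motif chosen after the sequences were read.
Searched on both strands, TATATAA was found 28 bases before the Postn start and 29 bases before this Tnc start, in the direction of the gene, and in 3.24% of all 32851 windows. In Postn it overlaps a match to TATAAA 26 bases before the start, and Tnc holds TATAAA 205 bases before its start, a motif found in 13.6% of windows. GGGCGG, the GC box, was found in the Tnc window, as in 35.7% of all windows, and CCAAT (37.4% of windows) in neither. The windows shown belong to genes of unlike level, 25.5 CPM per kilobase for Postn and 4.37 for Tnc, and these matches are letters in a sequence, not measured sites.

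Between mice, 9 of the 10 members stayed within 1.5-fold and none passed 2-fold. The exception was Fn1, whose highest value was 1.58 times its lowest. Over all filtered genes, 15.6% passed 1.5-fold and 3.32% passed 2-fold between the highest and the lowest mouse. Pair by pair, Fn1 passed 1.5-fold between mice 4 and 6, as did 6.34% of genes, and no member did between mice 4 and 5 (11% of genes) or mice 5 and 6 (5.68%). At 2-fold the counts of members were 0 in each pair, beside 2.54%, 1.63% and 0.663% of genes for mice 4 and 5, 4 and 6, and 5 and 6. With 1 library per side these folds have no replicate check, and the members' counts lie near the background.

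**Figure D3:**
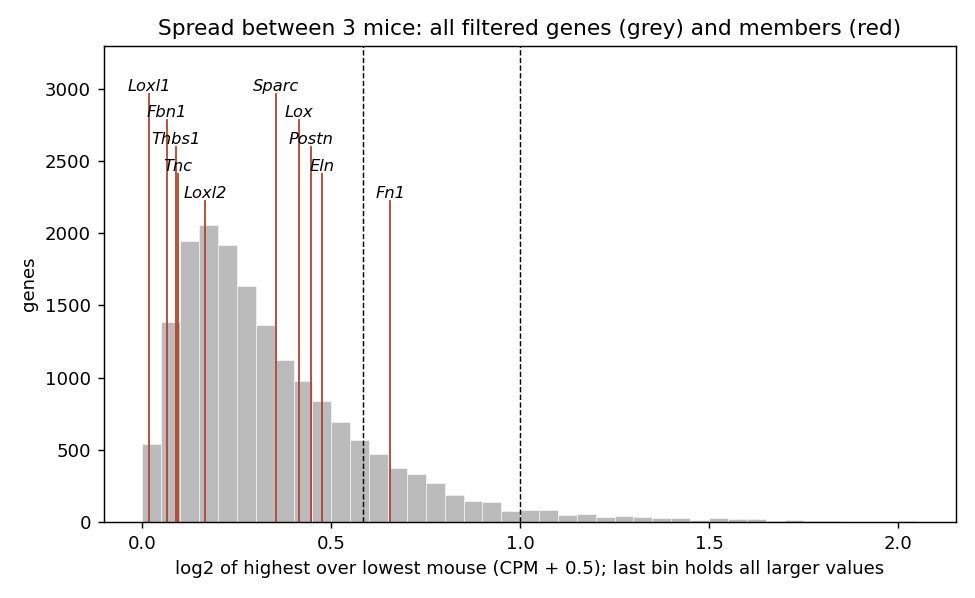
Number of filtered genes (grey bars) by the log2 ratio of the highest to the lowest mouse, with CPM + 0.5, and the 10 members as red lines. Dashed lines mark 1.5-fold and 2-fold, and of the members only Fn1, at 1.58-fold, lies beyond the first.

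The members fell into a more variable and a steadier set in these 3 lungs, a description made after the values were seen. Fn1, Eln, Postn, Lox and Sparc had ranges of 1.28- to 1.58-fold, while Loxl2, Tnc, Thbs1, Fbn1 and Loxl1 had ranges of 1.01- to 1.12-fold. The ranges of the first set were wider than those of 61.8% (Sparc) to 88.3% (Fn1) of all filtered genes. Those of the second set were wider than 0.437% (Loxl1) to 25.55% (Loxl2). In the first set, the 95% interval of the mouse 4 to mouse 6 ratio of Fn1, from an exact binomial interval on its counts, was 1.54 to 1.62, and that of the mouse 5 to mouse 6 ratio of Lox was 1.27 to 1.41. For Loxl1, Tnc and Fbn1 the intervals of all 3 pairs of mice held 1, as for Loxl1 between mice 4 and 5 (0.971 to 1.06). Differences between mice in these genes were therefore not detectable at this depth. The steadier set also held intervals without 1, for Loxl2 between mice 4 and 5 (0.812 to 0.974) and for Thbs1 between mice 5 and 6 (1.01 to 1.12). These intervals cover counting error only.

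**Figure D4:**
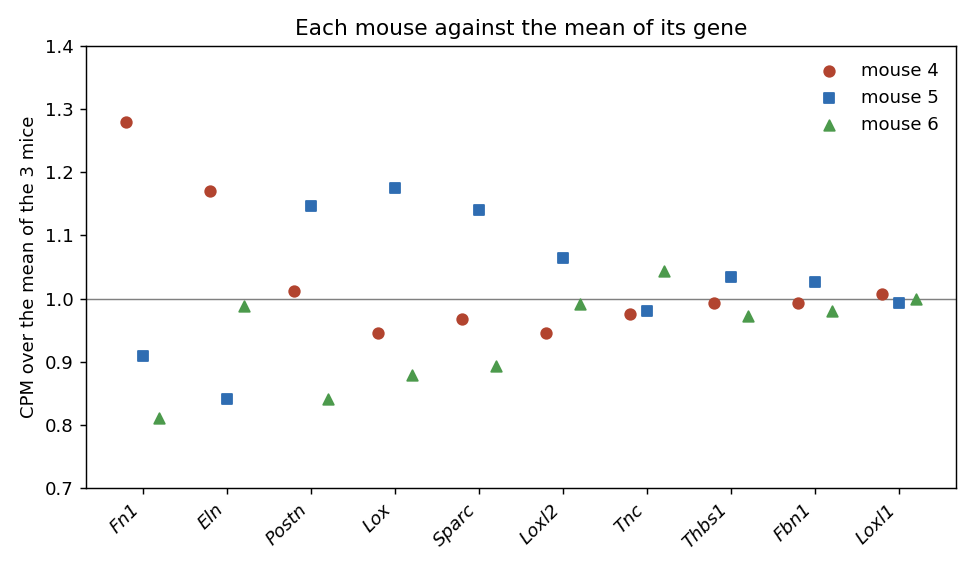
CPM of each member in mice 4, 5 and 6 divided by its own mean over the 3 mice, ordered by range. Fn1 and Eln are highest in mouse 4, Postn, Lox and Sparc are highest in mouse 5 and lowest in mouse 6, and Thbs1, Fbn1 and Loxl1 lie close to 1.

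The variable members did not share 1 order of mice. Fn1 and Eln were highest in mouse 4, but Fn1 was lowest in mouse 6 and Eln in mouse 5. Postn, Lox and Sparc were highest in mouse 5 and lowest in mouse 6, under TMM, DESeq2 and total-count scaling alike. In all, 6 of the 10 members were highest in mouse 5, as were 36.4% of filtered genes, and 6 were lowest in mouse 6, as were 29.9%. Of those 6 lowest in mouse 6, Thbs1 and Fbn1 became lowest in mouse 4 when only library totals were used. The order of the mice for Loxl1 changed with each scaling.

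Marker lists moved between the same mice. Macrophage genes, of cells that can make fibronectin, summed to 2552, 1779 and 2122 CPM in mice 4, 5 and 6 (8 of 8 at 1 CPM or more in each mouse), with mouse 4 highest and mouse 5 lowest, as for Eln. Of these 8 genes, 5 were highest in mouse 4, while Mrc1 and Chil3 were highest in mouse 5 and lowest in mouse 4, and Marco was highest in mouse 6. Skeletal muscle and squamous genes, whose sums are given above (8 of 8 and 6 of 7 at 1 CPM in each mouse), were highest in mouse 4 and lowest in mouse 6, as was Fn1. Fibroblast genes summed to 1076, 1808 and 1115 CPM (8 of 8 at 1 CPM) and endothelial genes to 1235, 1753 and 1286 CPM (6 of 6). Both sums were highest in mouse 5, as were Postn, Lox and Sparc. These sums were lowest in mouse 4, whereas Postn, Lox and Sparc were lowest in mouse 6. The largest gene in the fibroblast sum was Inmt, a methyltransferase, at 399, 972 and 500.5 CPM, whereas Dcn, the proteoglycan decorin, had 148, 124 and 120.0 CPM. Smooth muscle and pericyte genes summed to 464, 621 and 591 CPM (7 of 7 at 1 CPM), and mesothelial genes to 125, 119 and 92.2 CPM (5 of 5). Platelet genes summed to 27.2, 53.7 and 33.0 CPM (4 of 6), tendon genes to 27.9, 26.9 and 20.8 CPM (2 of 4) and cardiac muscle genes to 316, 148 and 325 CPM (5 of 6). Alveolar type 1 genes summed to 2741, 3728 and 2577 CPM and alveolar type 2 genes to 21150, 28580 and 25720 CPM, both highest in mouse 5. The type 1 sum was lowest in mouse 6, as were Postn, Lox and Sparc, and the type 2 sum in mouse 4. Cartilage genes were near 0, at 0.720, 0.747 and 0.631 CPM (0 of 5, with Acan at 0 counts in every library). The part of any of these cells in the members' values was not tested.

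**Figure D5:**
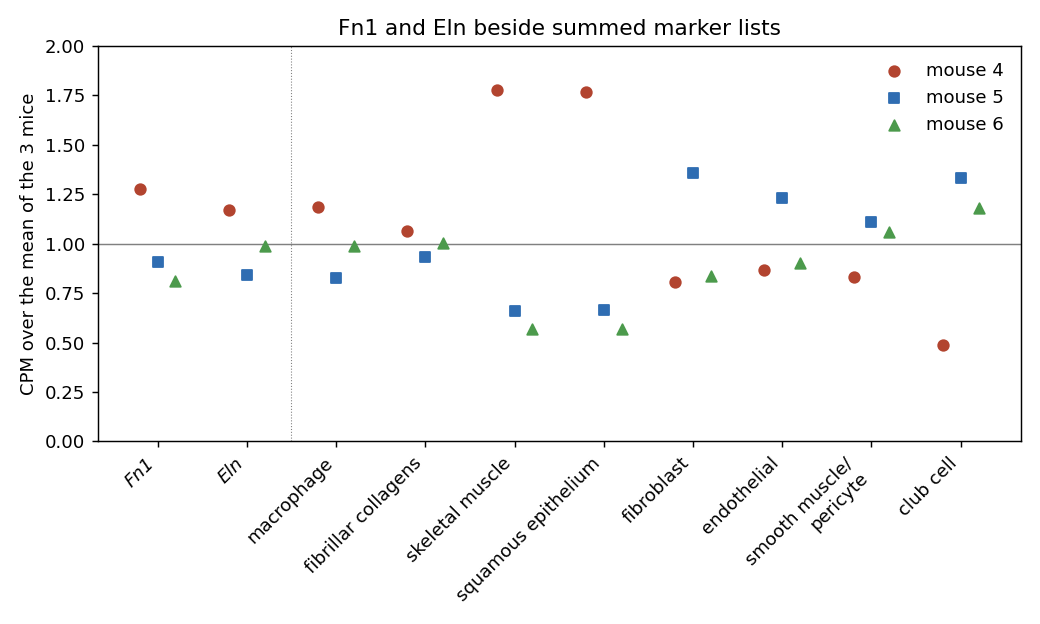
CPM of Fn1 and Eln, and summed CPM of 8 gene lists, in mice 4, 5 and 6, each divided by its mean over the mice. Skeletal muscle and squamous sums are high in mouse 4 and club cell sums low. Macrophage sums are highest in mouse 4 and lowest in mouse 5, as are fibrillar collagen sums over a narrower range. Fibroblast and endothelial sums are highest in mouse 5 and lowest in mouse 4.

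Fibrillar collagens are further substrates of lysyl oxidases. Col1a1 stood at 89.6 ± 10.4 CPM per kilobase, Col3a1 at 86.5 ± 4.73, Col1a2 at 41.1 ± 2.08 and Col5a2 at 11.7 ± 0.992, and 9 of 11 fibrillar collagen genes reached 1 CPM in each mouse. The order of these collagens depends on the length used. Exon union against longest transcript is 12426 against 5348 bases for Col1a2, 9816 against 5564 for Col3a1 and 6563 against 5930 for Col1a1. Per kilobase of exon, Eln exceeded Col1a1 by 1.44, 1.31 and 1.29 times in mice 4, 5 and 6. Per kilobase of the longest transcript, Eln exceeded it by 2.74, 2.48 and 2.45 times. The ratio had a 1.12-fold range although each gene alone ranged over 1.39- and 1.26-fold. Col5a3 had the widest range of the 9 filtered collagens, at 2.01-fold, with 24.7, 12.1 and 17.8 CPM, and Col24a1 followed at 1.41-fold. Their median range was 1.19-fold, beside 1.199-fold in the members and 1.21-fold over all filtered genes.

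Other matricellular and matrix glycoproteins were uneven in level, and 20 of 23 reached 1 CPM in each mouse. Beside Sparcl1, the highest per kilobase were Tgfbi, a TGF-beta-induced matrix protein, at 102.5 ± 23.9, Spp1, the osteopontin gene, at 83.6 ± 3.87, and Ecm1, extracellular matrix protein 1, at 74.4 ± 16.9 CPM per kilobase. Tgfbi (487.5, 314 and 358 CPM) and Ecm1 (237, 166.5 and 160 CPM) were highest in mouse 4. Of the 21 filtered genes of this list, 7 were highest in mouse 4, 11 in mouse 5, Spp1 among them, and 3 in mouse 6. Tnn, a tenascin, had the widest range, with 2.81, 8.21 and 5.20 CPM. The genes below 1 CPM were Comp, a thrombospondin of cartilage, Tnr and Spock1.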

How the data were processed

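Bulk RNA was sequenced from 3 lungs. RNA was isolated with a Direct-zol kit and made into Nugen mRNA libraries, per the labels' protocols. The table that the authors deposited holds whole-number, unnormalized counts by Ensembl identifier. Per the submitters' processing notes, bcl2fastq 2.17, Trim Galore 0.6.2, STAR 2.5.2a and build mm10 were used, while the counting tool, its annotation and strand setting were not given in the sources used here. Genes that overlap on opposite strands therefore cannot be told apart. Symbols, coordinates (1-based) and exon lengths came from GENCODE M21 on the same build (53237 of 53342 identifiers matched). Exon length is the union of all exons. Fn1, Tnc, Thbs1, Eln, Fbn1, Lox and Loxl2 overlap genes on the opposite strand. Those in the table held at most 24 counts in a library. The longest overlap was 2442 of the 12128 exon bases of Fbn1. What these overlaps did to the counts of the members was not tested.

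CPM used TMM factors from edgeR 4.0.16 in R 4.3.3, and 17636 genes passed filterByExpr. Folds between mice are of CPM + 0.5. All samples form 1 group, so no contrast and no test was run, and no paired analysis applies. That each library is 1 animal is known only from the labels. Counts differed between libraries beyond counting noise (chi-square per degree of freedom 36.6 to 94.4), so no pair of columns was 1 library repeated. Library totals were 31579465 to 43845715 counts. The fold calculation was tested on simulated Poisson counts with known folds and no other variation between mice. That test checks the arithmetic, not the spread between these mice. Values were computed in Python 3.11.15 (pandas 2.3.3, scipy 1.17.1).

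The members and all gene lists were chosen with earlier results of these data known. Named are all 10 members and, of other lists, up to 4 genes highest per kilobase, the gene of widest range among those at 1 CPM in each mouse, and genes at 0 counts in all libraries. Marker lists are given as sums. Family relatives (Fbn2, Loxl3, Loxl4, Thbs2, Thbs3, Thbs4, Tnxb, Tnr, Sparcl1), genes below 1 CPM, Prtn3, Dcn, Timp4, Col24a1, Mrc1, Chil3 and Marco were named after their values were seen. Alternatives were DESeq2 1.42.0 size factors, library totals alone, other filters, pseudocounts and lengths, and leaving out each mouse.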

Additional observations from a re-analysis of the deposited data

How the results depend on the processing

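No paired analysis was possible because the samples form 1 group. Median member level (105 CPM) was close to this value under each scaling tried. The members' median range (1.199-fold) and the count of members past 2-fold (0) were close to theirs under each scaling and pseudocount tried. The median range over all filtered genes moved more, to 1.234-fold with a pseudocount of 0.1 and 1.167-fold with 2. The members' median lay below it with 0.1 (1.201-fold) and above it with 2 (1.196-fold). The filters bear only on the share of all genes, since the count of members does not use them. Alternative mean levels of single members lay within 1 SD of the value given in 50 of 50 cases. For means with a mouse left out this was bound to hold, since with 3 mice such a mean cannot move by 1 SD. Of the 10 places in the order per kilobase, 5 were kept with the longest transcript as length and 3 with no length scaling, by construction of the length, and 8 to 10 with a mouse left out. The share of counts was 0.381% when the 25 most abundant genes were left out of the total. It was 0.324% to 0.345% with a mouse left out, median levels were 104.6 to 106 CPM, and median ranges 1.07- to 1.13-fold. A range over fewer mice cannot be larger, and over all filtered genes the median range was then 1.11- to 1.14-fold. The count of members past 1.5-fold was 1 with all mice and 0 to 1 with a mouse left out: without mouse 4 Fn1 ranged over 1.12-fold, without mouse 6 over 1.41-fold and without mouse 5 over 1.58-fold. The share of all genes past 2-fold was 1.25% for mice 4 and 5 with a pseudocount of 2 and 3.91% with 0.1, since low genes then count less or more. Among genes with a mean of at least 10 CPM it was 1.75% for mice 4 and 5, 1.08% for mice 4 and 6 and 0.330% for mice 5 and 6. With 3 mice, SDs are themselves imprecise.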

Other observations

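Receptors for the members were present throughout. All 13 matrix receptor genes reached 1 CPM in each mouse. Itgb1, the integrin beta 1 chain shared by fibronectin and tenascin receptors, stood at 156.7 ± 19.1 CPM per kilobase, Sdc4, a syndecan that binds fibronectin, at 99.0 ± 4.66, and the thrombospondin receptors Cd36 and Cd47 at 75.1 ± 15.4 and 46.5 ± 2.04. Itga8, an integrin chain of fibroblasts and smooth muscle, varied most, with 46.2, 71.0 and 40.0 CPM in mice 4, 5 and 6.

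Of 10 elastases and other matrix proteases, 7 reached 1 CPM in each mouse. Ctss, the elastin-degrading cathepsin S of antigen-presenting cells, led at 2020 ± 614 CPM per kilobase and had 3692, 2128 and 2411 CPM in mice 4, 5 and 6. Mmp2, Ctsk and Mmp14 had 75.9 ± 12.9, 71.0 ± 14.8 and 57.9 ± 14.1 CPM per kilobase, and 8 of 8 filtered protease genes were highest in mouse 4, beside 33.5% of all filtered genes. Macrophage marker genes, also highest in mouse 4 as a sum, are given above, and their part was not tested. Neutrophil elastase, Elane, had 5, 1 and 1 counts and cathepsin G, Ctsg, 0, 3 and 2. Proteinase 3, Prtn3, another neutrophil serine protease, had 93, 52 and 28 counts and the widest range of the filtered proteases, at 1.92-fold on CPM + 0.5. The 7 inhibitors were uneven in level. Cystatin C, Cst3, stood at 769.8 ± 32.5, Timp2 at 103 ± 11.2, Slpi at 74.0 ± 12.5 and Timp1 at 51.1 ± 13.9 CPM per kilobase, whereas Timp4 and A2m stood at 0.5002 ± 0.127 and 0.290 ± 0.0950, below the filtered median of 4.48. The widest range among the inhibitors was that of A2m, at 1.72-fold on CPM + 0.5, with 2.60, 1.30 and 2.21 CPM in mice 4, 5 and 6.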
